A study of Mus musculus with 21 samples.

Results

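Genes of DNA replication and S phase were followed in RNA-seq data from mice lacking a long intergenic noncoding RNA (lincRNA). The set holds 43 genes named by symbol, out of 42760 entries in the Peril and Fendrr tables and 40770 in the linc-Brn1b table, and each of the 43 had exactly 1 entry in every table. The study compared wild-type (+/+) with homozygous knockout (-/-) mice of 3 strains: Peril (linc-Sox2 in the sample labels) in E18.5 brain, Fendrr (linc-Foxf1a in the labels) in E14.5 lung, and linc-Brn1b in telencephalon of E13.5 and E15.5 embryos and in whole brain at P7. In each strain the lincRNA gene had been replaced by a lacZ cassette with a neomycin resistance gene in hybrid 129S6SvEv and C57BL/6N embryonic stem cells, and the mice had been backcrossed once to C57BL/6J. The 10 groups had 2 libraries each, except for the linc-Brn1b -/- group at E15.5, for which the labels list 3. The tables give 1 pooled value per group and none per library, so every value below stands without an error and no comparison has a test.

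Before a cell divides, it copies its DNA once. The origin recognition complex with Cdc6 and Cdt1 loads the Mcm2 to Mcm7 hexamer onto DNA, and Cdc45 and the GINS proteins turn that hexamer into the active helicase. Cyclin E drives entry into S phase, primase and the polymerases make DNA on the clamp Pcna, and ribonucleotide reductase and thymidylate synthase supply the building blocks. Most of these genes are transcribed in the G1 to S interval by E2F factors, so that tissues with many cycling progenitors, such as the embryonic telencephalon and lung, hold much of their mRNA, and postmitotic neurons hold little. In bulk tissue, fewer cycling cells and less mRNA per cell cannot be told apart.

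The promoters are shown first because E2F sites are what these genes are known to share. RefSeq promoters of the GRCm38.p6 build, from 250 bases before to 50 bases after the transcription start, were found for 36 of the 43 genes. The missing ones are Ccne2, Gins1, Gins2, Mcm4, Pole, Prim2 and Rfc2. Searched on both strands for the 4 spellings TTTCCCGC, TTTGGCGC, TTTCGCGC and TTTGCCGC, 14 of the 36 genes (38.9%) held a match, against 704 of 27025 genes (2.6%) with a promoter of the same length. The 14 were Cdc6, Cdt1, Gins3, Lig1, Mcm3, Mcm5, Mcm6, Mcm7, Orc1, Pola1, Pold1, Pole2, Rfc3 and Uhrf1. A match is a description of letters and no measurement of binding. For 11 of them, those that the rule for named genes picks, a stretch around matches is printed 5′ to 3′ on the strand of the gene, with the matched letters in capitals. Matches can overlap on the opposite strands, as in the first block of Mcm6 and in Mcm5. Mcm7 holds another match, TTTCGCGC from base 17 after the start, outside the stretch shown. Where the match lies after the start, at most 30 bases are given.
Mcm6 (chr1:128359725-128359835, minus strand, before the start): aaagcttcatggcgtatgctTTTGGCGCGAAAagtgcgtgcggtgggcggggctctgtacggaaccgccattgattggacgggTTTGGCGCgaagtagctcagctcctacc
Mcm5 (chr8:75109336-75109387, plus strand, before the start): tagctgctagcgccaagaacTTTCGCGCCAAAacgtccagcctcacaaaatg
Mcm7 (chr5:138172021-138172068, minus strand, before the start): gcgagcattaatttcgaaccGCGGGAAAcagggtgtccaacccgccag
Mcm3 (chr1:20820265-20820294, minus strand, after the start): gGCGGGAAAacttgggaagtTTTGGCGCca
Gins3 (chr8:95633498-95633545, plus strand, before the start): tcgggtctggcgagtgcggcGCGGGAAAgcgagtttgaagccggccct
Orc1 (chr4:108579407-108579453, plus strand, before the start): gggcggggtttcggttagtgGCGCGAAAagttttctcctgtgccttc
Cdt1 (chr8:122568046-122568064, plus strand, after the start): tTTTGGCGCcatggcgcaa
Pola1 (chrX:93632266-93632313, minus strand, before the start): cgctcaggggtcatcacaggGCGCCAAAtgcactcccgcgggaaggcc
Pold1 (chr7:44548766-44548777, minus strand, after the start): gGCGGGAAAagc
Lig1 (chr7:13278851-13278875, plus strand, after the start): cGCGCGAAAtctgtgtggcgcgaat
Uhrf1 (chr17:56304108-56304155, plus strand, before the start): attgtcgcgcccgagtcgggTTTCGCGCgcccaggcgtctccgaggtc

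Levels are in FPKM, fragments scaled to transcript length and to the number of mapped fragments, and differences are knockout minus wild type on the scale log2(FPKM + 1). A difference of 0.3 in size, about 1.23-fold for a well expressed gene, was used to count genes in each direction, and the same count was made over all genes of at least 1 FPKM in the mean of both groups. The targeted transcript was read first. The linc-Brn1b entry stood in +/+ at 1.60 FPKM at E13.5, at 2.498 FPKM at E15.5 and at 0.799 FPKM in P7 brain, and at 0 in every -/- group. The entry over the Fendrr locus, linc-Cox4nb-4, stood at 38.4 FPKM in +/+ and 0.0450 in -/- lung. No entry is named Peril. The entry linc-Atp11b-4, at 34654563 to 34676217 of chromosome 3 (mm9), lies where the study's text places Peril downstream of Sox2, and it stood at 0.0109 FPKM in the E18.5 brain labelled +/+ and at 4.65 FPKM in that labelled -/-, against the direction a deletion would give. Which transcript its reads come from was not tested. The study itself reported loss of Peril by RT-PCR in E18.5 brain of -/- mice. Every Peril difference below is between brains as labelled. The 4 Y-linked genes of the tables (Ddx3y, Eif2s3y, Kdm5d, Uty) summed to at most 0.0357 FPKM in one genotype and to at least 21.0 FPKM in the other in each of the 5 comparisons, higher in -/- for Peril, E15.5 and P7 and higher in +/+ for Fendrr and E13.5, so the sex of the animals and the genotype cannot be told apart.

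The 43 genes were detected in all tissues, with a median of 44.9 FPKM in +/+ E14.5 lung, 32.1 in E13.5 telencephalon, 17.4 in E15.5 telencephalon, 8.07 in E18.5 brain and 5.66 in P7 brain. The lung and the E18.5 brain come from tables that were normalized separately, so their levels are set beside the others without a comparison. In every group the highest of the 43 was Pcna, the sliding clamp, and the lowest was Orc1, the largest subunit of the origin recognition complex. Pcna reached 332 FPKM in +/+ and 343 in -/- lung, 291 and 203 in E13.5 telencephalon, 169 and 173 in E15.5 telencephalon, 86.3 and 76.9 in E18.5 brain, and 71.3 and 49.3 in P7 brain. Orc1 stood at 3.24 and 4.37 FPKM in lung, 1.78 and 2.01 at E13.5, 0.578 and 0.791 at E15.5, 0.179 and 0.0534 at E18.5, and 0.109 and 0.176 at P7. The mean of both groups passed 1 FPKM for all 43 genes in lung and at E13.5, for 42 at E15.5, and for 41 in E18.5 and P7 brain, where Orc1 and Cdc6 fell short. All 43 are kept in the counts below. In the linc-Brn1b table or another, 20 of the 43 share their position with at least 1 other entry, among them Tk1, Ccne2, Ccne1, Gins2, Mcm7 and Rfc4, and reads there could have been divided between entries.

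From E13.5 to P7, replication mRNA levels in the linc-Brn1b strain were lower at each later age, to an extent that differed between roles. In +/+ animals all 43 genes were lower at E15.5 than at E13.5, with a median difference of -0.90, and 16 of the 43 (37.2%) were lower by at least 1 on the log2 scale, against 1.99% of all genes. From E15.5 telencephalon to P7 brain 33 of the 43 (76.7%) were lower by at least 1, against 12.8% of all genes, with a median of -1.37. In -/- animals 4 of the 43 were lower by at least 1 in the first interval, against 1.48% of all genes, and 36 in the second, against 1900 of 14109 genes, with medians of -0.72 and -1.90. P7 was whole brain and the earlier ages telencephalon, so age and tissue cannot be told apart there, and the +/+ groups at E13.5 and E15.5 differed in Y-linked mRNA as well (49.2 FPKM summed against 0.00662). Rescaling each group to the same FPKM sum moved the all-gene median from -0.10 to 0.03 in the second +/+ interval, from -0.03 to -0.20 in the first -/- interval and from -0.10 to 0.06 in the second, and the members then lay at -1.46, -0.71 and -1.91 relative to it.

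**Figure D1:**
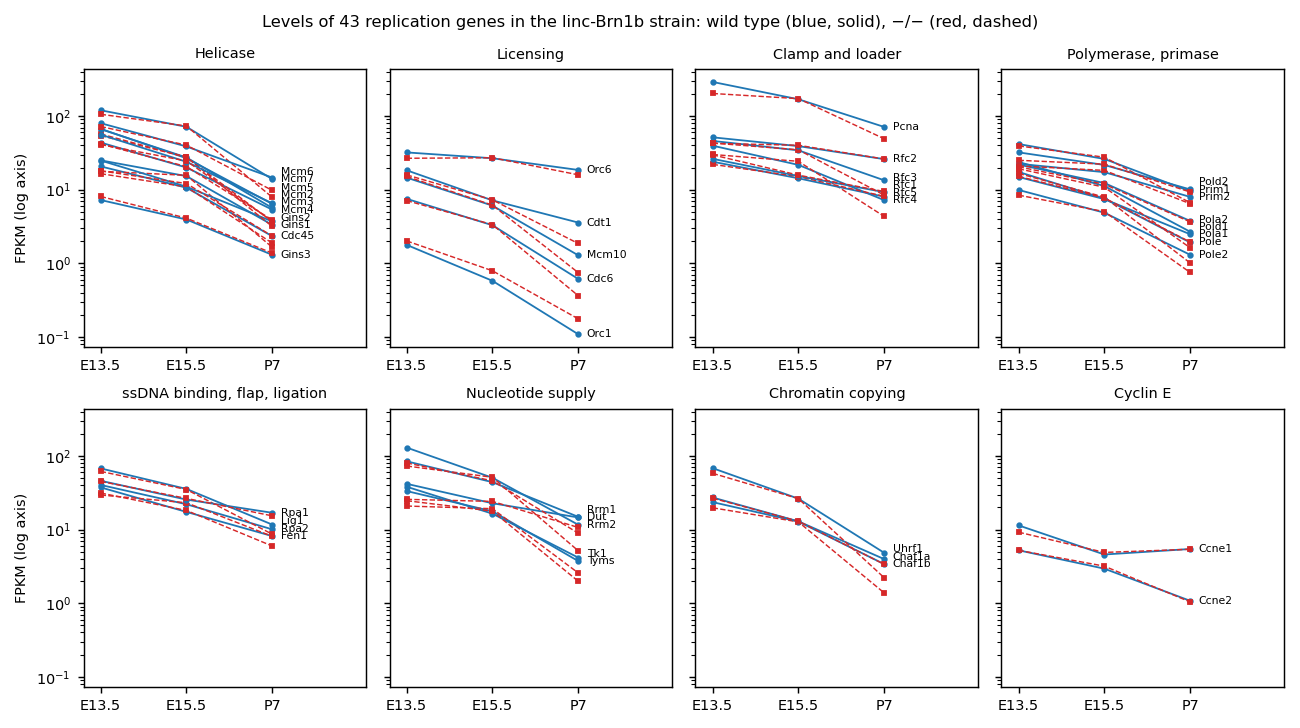
Level of each of the 43 genes in FPKM (log axis) in linc-Brn1b mice at E13.5, at E15.5 (both telencephalon) and in whole brain of age P7, in 8 panels by role, with wild type in blue solid lines and -/- in red dashed lines, 1 pooled value per point. Wild-type Mcm2 goes from 67.1 to 26.8 to 6.40 FPKM, and the red points lie under the blue ones for most genes at E13.5 and P7 and close to them at E15.5.

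The share of the E13.5 level that was left in +/+ P7 brain ran from 6.11% for Orc1 to 57.8% for Orc6, with a median of 17.2% over the 43 genes. Orc1 (0.109 FPKM) and Cdc6 (0.613 FPKM) stood below 1 FPKM at P7, so their shares rest on values near the floor. The licensing group kept a median of 8.81% over 5 genes, though with the widest range. It holds Orc1, Orc6, Cdc6, Cdt1 and, as grouped here, Mcm10, whose own share is that median. Helicase genes kept a median of 11.96% over 10, between 8.51% and 18.2%. Mcm2 went from 67.1 to 26.8 to 6.40 FPKM over the 3 ages, Mcm3 from 66.5 to 27.4 to 5.66, and Mcm7, the most abundant helicase mRNA, from 120 to 71.6 to 13.9. Among the licensing genes Orc1 and Orc6 are the extremes of the whole set, and Cdt1 kept 19.5%. Nucleotide supply genes kept a median of 11.2%, with Rrm2, the S-phase subunit of ribonucleotide reductase, going from 130 to 50.7 to 11.7 FPKM and Dut, which clears dUTP, keeping 34.9%. Uhrf1, which brings maintenance methylation to newly copied DNA, went from 68.5 to 26.4 to 4.85 FPKM. Clamp and loader genes kept a median of 31.3%, and Rfc2 kept 50.6%. Ccne1, the cyclin of S-phase entry, went from 11.4 to 4.59 to 5.45 FPKM and was the sole member that was higher in +/+ P7 brain than at E15.5.

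**Figure D2:**
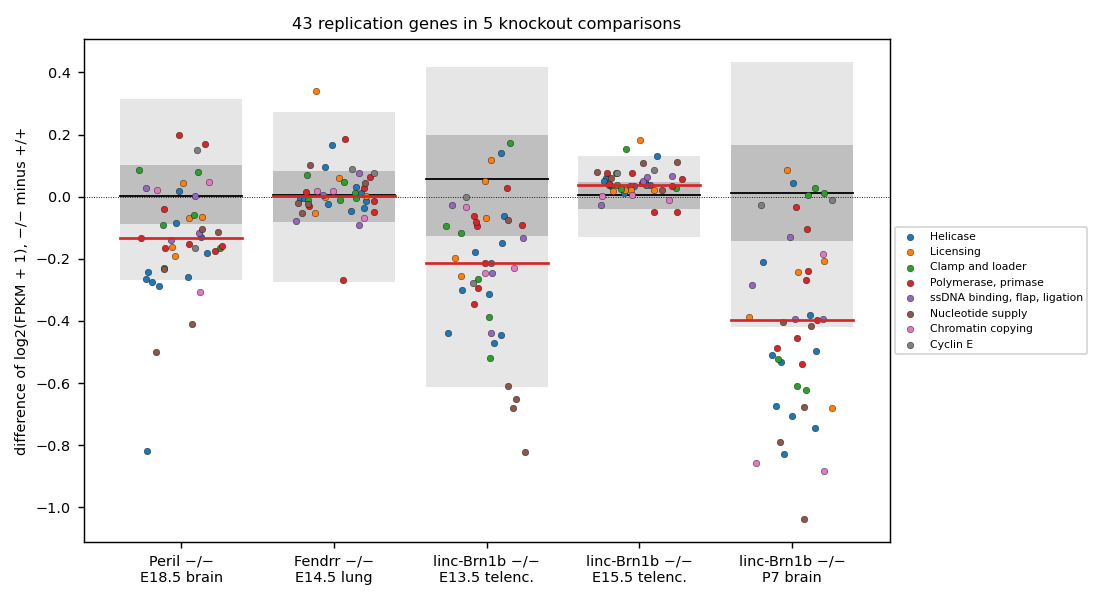
Difference of log2(FPKM + 1), -/- minus +/+, of the 43 genes in the 5 comparisons, coloured by role, with the members' median as a red line, over the 5th to 95th and 25th to 75th percentiles (light and dark grey) and the median (black line) of all genes of at least 1 FPKM. The red median lies at -0.13 for Peril and 0.00 for Fendrr, and in linc-Brn1b tissue it lies at -0.40 in P7 brain, at 0.04 in E15.5 telencephalon and at -0.21 in that of E13.5.

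Of the 5 comparisons, replication mRNA was lowest relative to +/+ in linc-Brn1b -/- P7 brain. Of the 43 genes, 26 (60.5%) were lower by at least 0.3, against 9.81% of all genes, and 0 were higher by that much, against 11.4%. The median difference was -0.40, against 0.01 over all genes, and 38 of the 43 were lower by any amount, against 47.8% of all genes. The summed level of the 43 genes was 377 FPKM in +/+ and 277 FPKM in -/-. Genes of at least 5 FPKM in the mean gave 12 of 21 lower by 0.3, against 7.89% of all genes of that level. The filter removes most of the set at this age.

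By role, the lower genes at P7 were mostly those of nucleotide supply, chromatin copying and the helicase, and the cyclin E genes stood at the +/+ level. All 5 nucleotide supply genes were lower by at least 0.3. Rrm2 went from 11.7 to 5.17 FPKM (44.3% of +/+, a difference of -1.04), the lowest of the 43. Tk1, which salvages thymidine, went from 4.17 to 1.99 FPKM (-0.79), Rrm1, the large reductase subunit, from 14.9 to 8.97 (-0.68), Dut from 14.6 to 10.7 (-0.42) and Tyms, thymidylate synthase, from 3.74 to 2.58 (-0.40). The next lowest were Chaf1b, a subunit of the chromatin assembly factor that places histones behind the fork, from 3.40 to 1.38 FPKM (-0.88), and Uhrf1, from 4.85 to 2.23 FPKM (-0.86). Chaf1a, its partner subunit, went from 3.98 to 3.39 FPKM (-0.18).

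All 6 Mcm genes of the hexamer were lower by at least 0.3 at P7. Mcm2 went from 6.40 to 3.17 FPKM (-0.83), Mcm7 from 13.9 to 7.90 (-0.74), Mcm5 from 6.53 to 3.73 (-0.67), Mcm6 from 14.6 to 9.79 (-0.53), Mcm3 from 5.66 to 3.68 (-0.51) and Mcm4 from 5.36 to 3.88 (-0.38). The helicase partners were uneven. Gins1 (-0.70) and Gins2 (-0.50) followed the Mcm genes, Cdc45 went from 2.33 to 1.88 FPKM (-0.21), and Gins3 stood at 1.30 and 1.37 FPKM (0.04). Among licensing genes Cdt1 went from 3.58 to 1.86 FPKM (-0.68), whereas Orc6 went from 18.55 to 15.9 (-0.21).

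The clamp loader was divided at P7. Rfc3 went from 13.4 to 8.45 FPKM (-0.61) and Rfc4 from 7.21 to 4.34 (-0.62), while Rfc1, Rfc2 and Rfc5 differed by 0.03, 0.00 and 0.01. Pcna itself went from 71.3 to 49.3 FPKM (-0.52). Of the 8 polymerase and primase genes 4 passed 0.3, namely Pole (1.92 to 1.01 FPKM, -0.54), Pold1 (-0.49), Prim1 (9.51 to 6.66 FPKM, -0.46) and Pole2 (-0.40), and Pola1, the catalytic subunit of the priming polymerase, went from 2.48 to 1.95 FPKM (-0.24). Lig1, the ligase of Okazaki fragments, and Fen1, the flap nuclease, each differed by -0.39. Ccne1 stood at 5.45 and 5.41 FPKM and Ccne2 at 1.08 and 1.04, differences of -0.01 and -0.03.

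Other genes of dividing cells were lower in the same P7 groups. Of 19 mitosis genes, 19 were lower by at least 0.3, with a median of -0.65, among them Top2a from 13.1 to 5.64 FPKM and Mki67 from 7.33 to 3.18 FPKM. Markers of cerebellar granule progenitors, which divide in the postnatal cerebellum, were lower too. Of the 10 listed, 8 passed 1 FPKM and 7 of these were lower by at least 0.3 (median -0.96). Barhl1 went from 4.25 to 0.939 FPKM, and Neurod1, which is not limited to dividing progenitors, from 25.03 to 8.37. None of the 10 was at 0 in both groups. Their summed level was 103 FPKM in +/+ and 46.04 FPKM in -/-. Neural progenitor markers had a median of -0.35, with 6 of 11 lower by 0.3 (1203 and 735 FPKM summed), and choroid plexus markers a median of -0.36, with 4 of 7 lower (512 and 354 FPKM). Oligodendrocyte progenitor markers, a list added after the values were seen, had a median of 0.29 with 0 of 6 lower by 0.3, and the telencephalon markers a median of 0.23 over 7 genes. The part of any of these lists in the replication result was not tested.

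**Figure D3:**
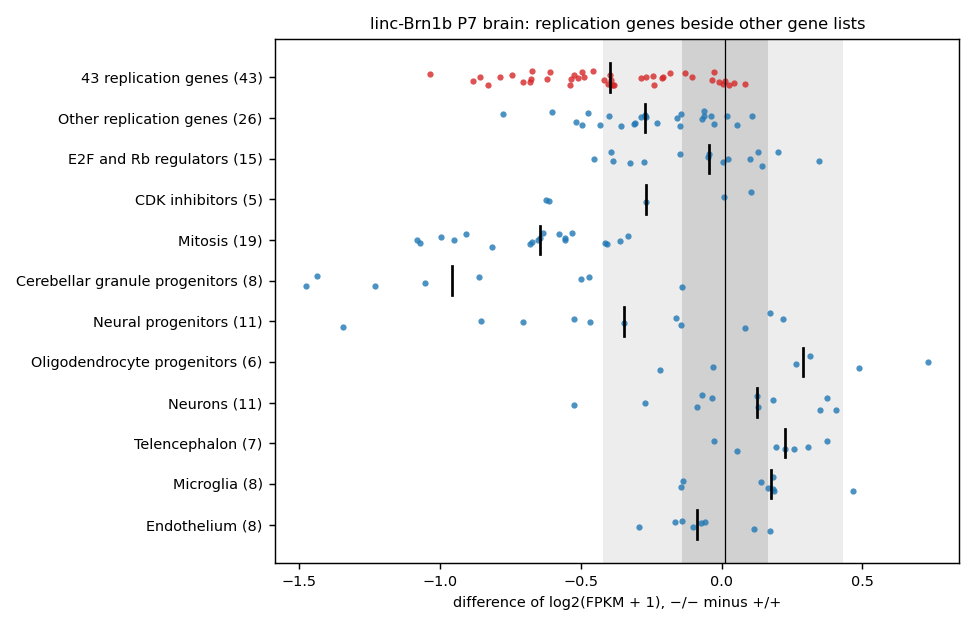
Difference of log2(FPKM + 1), -/- minus +/+, in linc-Brn1b P7 brain for the 43 replication genes (red) and for 11 other lists (blue, genes of at least 1 FPKM, their number in brackets), with the median of each list as a black bar and the 5th to 95th and 25th to 75th percentiles of all genes in grey. Mitosis genes (median -0.65) and cerebellar granule progenitor markers (median -0.96) lie further left than the replication genes (median -0.40), and oligodendrocyte progenitor markers have a median of 0.29.

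In linc-Brn1b -/- E13.5 telencephalon the nucleotide supply genes stood out among the 43. Of the set, 12 (27.9%) were lower by at least 0.3, against 13.3% of all genes, and 0 were higher by that much, against 12.3%. The median was -0.21, against 0.06 over all genes, and 38 of the 43 were lower by any amount, against 41.1%. Rrm2 went from 130 to 73.3 FPKM (-0.82), Dut from 41.9 to 25.8 (-0.68), Tyms from 33.4 to 20.9 (-0.65) and Tk1 from 38.3 to 24.7 (-0.61), whereas Rrm1 went from 84.9 to 80.6 (-0.07). The 2 reductase subunits thereby stood at an Rrm2 to Rrm1 ratio of 1.53 in +/+ and 0.909 in -/-.

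Pcna followed at E13.5, from 291 to 203 FPKM (-0.52). The other genes past 0.3 were Gins1 (-0.47), Gins2 (24.9 to 18.03 FPKM, -0.45), Mcm5 (56.0 to 41.0 FPKM, -0.44), Rpa2, which binds single-stranded DNA (-0.44), Rfc4 (-0.39), Pold2 (-0.34) and Cdc45 (20.7 to 16.5 FPKM, -0.31). The other Mcm genes differed by -0.30 (Mcm2, 67.1 to 54.3 FPKM, just short of the step), -0.22 (Mcm3), -0.18 (Mcm7), -0.15 (Mcm6) and -0.06 (Mcm4). The licensing genes did not pass 0.3, with Cdt1 at 18.3 and 15.9 FPKM (-0.20). Uhrf1 went from 68.5 to 58.3 FPKM (-0.23) and Ccne1 from 11.4 to 9.23 FPKM (-0.28). The highest differences were those of Rfc1 (26.3 to 29.7 FPKM, 0.17), Gins3 (0.14) and Orc1 (0.12).

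The sign of small E13.5 differences depends on the scale, which shifts nearly all genes alike. The FPKM of all entries summed to 434191 in +/+ and 381511 in -/-, and with both rescaled to the same sum the all-gene median was 0.24, the members' median -0.032, and 6 members were lower and 3 higher by at least 0.3, beside 8.45% and 39.7% of all genes. Relative to the all-gene median the members lay at -0.27 on either scale. After the rescaling Rrm2 (-0.64), Dut (-0.51), Tyms (-0.48), Tk1 (-0.44) and Pcna (-0.33) were still lower by at least 0.3, while Mcm4 and Mcm7 turned to 0.12 and 0.01 and Mcm6 to 0.04.

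Differences at E13.5 also moved with transcript length. Across 11958 genes with an annotated transcript, Spearman's rho between the length of the longest one and the difference was 0.49, and across the 43 members it was 0.56 (genes of the same libraries, not independent). All genes shorter than 1500 bases had a median of -0.37 and those of 4000 bases or more a median of 0.14. Within the length classes the members' medians were lower than those of all genes, least so for the shortest. Below 1500 bases the medians were -0.43 for 2 members and -0.37 for 1503 genes. From 1500 to 2500 bases the medians were -0.27 for 16 members and -0.07 for 2468 genes, from 2500 to 4000 bases they were -0.18 for 17 members and 0.05 for 3721 genes, and from 4000 bases on they were -0.00 for 8 members and 0.14 for 4266 genes. Set against the median of its own class among 20 length classes, 40 of the 43 were below. The longest annotated transcript need not be the one expressed, so the class of a gene is uncertain. For Tk1 the longest had 2490 bases and 3 exons, and for Tyms 3884 bases. In the other 4 comparisons rho across all genes lay between -0.23 and 0.22.

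**Figure D4:**
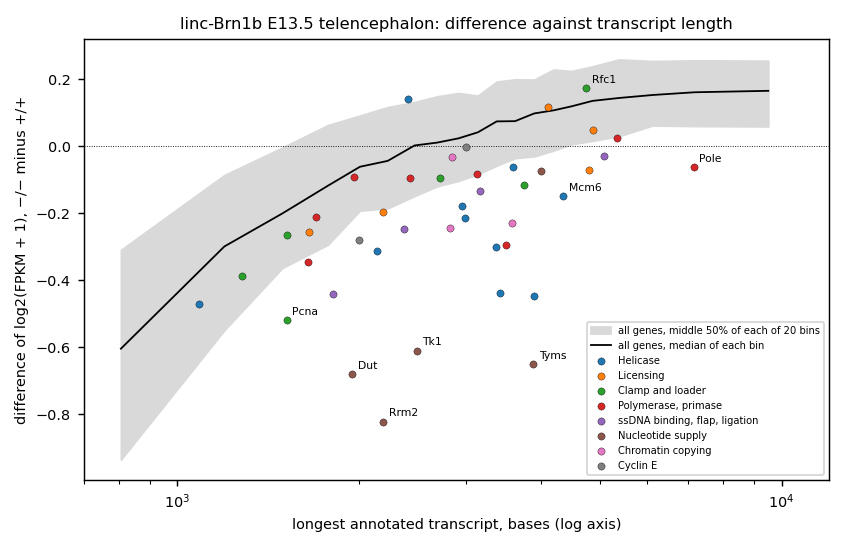
Difference of log2(FPKM + 1), -/- minus +/+, in linc-Brn1b E13.5 telencephalon against the length of the longest annotated transcript in bases (log axis), with the 43 genes coloured by role over the median (black line) and middle 50% (grey) of all genes in 20 length classes. Short genes lie lower than long ones, and 40 of the 43 members lie below the black line's class median, Rrm2, Dut, Tk1 and Tyms furthest. The longest annotated transcript need not be the one expressed.

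Marker lists of microglia, endothelium and erythroid cells were lower in the same -/- telencephalon. All 8 microglia genes were lower (median -0.60, 31.1 FPKM summed in +/+ and 18.1 in -/-), as were all 8 endothelial genes (median -0.39, 74.0 and 50.3 FPKM). Of 12 erythroid genes 7 passed 1 FPKM, with a median of -0.73, and 0 of the 12 were at 0 in both groups. Neuron genes had a median of 0.31 over 11 genes and choroid plexus genes a median of 0.18 over 6. Mitosis genes had a median of -0.12, with 6 of 19 lower by 0.3, against 13.3% of all genes. Neural progenitor markers had a median of -0.08, with 2 of 13 lower and 1 higher by 0.3. None of these lists was set against the scale or against transcript length, with which differences moved at this age. What these lists, the scale and the length contributed to the replication result was not tested.

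At E15.5, between the 2 ages with lower values, replication genes in linc-Brn1b -/- telencephalon stood close to +/+. Of the 43 genes 0 were lower by 0.3, against 0.836% of all genes, and 0 were higher, against 0.68%. The differences ran from -0.05 (Pola2, 12.3 and 11.9 FPKM) to 0.18 (Orc1), with a median of 0.04, and 4 of the 43 were lower by any amount, against 46.5% of all genes. The 6 Mcm genes differed by 0.01 to 0.06. Rrm2 stood at 50.7 and 51.5 FPKM, Pcna at 169 and 173, Uhrf1 at 26.4 in both groups and Tk1 at 16.5 and 17.9. After Orc1 the highest were Rfc4 (0.15, 21.7 to 24.3 FPKM) and Gins2 (0.13, 10.98 to 12.1 FPKM). Choroid plexus genes were far lower in these -/- samples, with a summed 247 FPKM in +/+ and 5.30 FPKM in -/-, while the summed level of the 43 genes was 1008 and 1038 FPKM. From its own gene set analysis the study reported lower growth and proliferation genes in -/- at E13.5, E15.5 and P7. By staining, it counted fewer dividing intermediate progenitors in E15.5 -/- cortex. Its gene sets were ranked by test statistic, a measure unlike the levels of these 43 genes.

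In E18.5 brain labelled Peril -/- a small set of replication genes was lower than in that labelled +/+, led by Mcm6. The direction rests on the labels, which linc-Atp11b-4 goes against. The study's RT-PCR of Peril cannot show which of the pooled values belongs to which genotype. The study also reported lower expression of cell cycle genes in Peril -/- brain, from the same RNA-seq data, which is no independent check of the labels. Of the 43 genes 4 (9.30%) were lower by at least 0.3, against 3.94% of all genes, and 0 were higher, against 5.41%. By any amount 32 of the 43 were lower (74.4%), against 49.2%, and the median was -0.13, against 0.00. Mcm6 went from 20.3 to 11.1 FPKM, 54.6% of +/+ and a difference of -0.82, with 50 of 14405 genes lower still. Rrm2 went from 18.1 to 12.5 FPKM (-0.50), Tyms from 5.39 to 3.80 (-0.41) and Uhrf1 from 8.07 to 6.33 (-0.31).

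The 6 subunits of the Mcm hexamer were not lower to the same extent in brain labelled Peril -/-. Mcm3 (-0.29), Mcm2 (8.52 to 6.93 FPKM, -0.26), Mcm5 (-0.26), Mcm4 (-0.18) and Mcm7 (26.8 to 25.2 FPKM, -0.08) differed less than Mcm6. Mcm6 stood at 1.64 times the mean FPKM of the other 5 in +/+ and at 1.02 times in -/-. In the other 8 groups this ratio lay between 1.13 and 2.19 and was 1.32 and 1.33 in the 2 lung groups. Mcm6 lies on chromosome 1 at 130228168 to 130256233 of mm9, on the minus strand. Of the genes of at least 1 FPKM within 0.5 Mb, its neighbours Ubxn4 and Dars differed by -0.10 and -0.19, Cxcr4 by -0.17, R3hdm1 by 0.06, and Rab3gap1 and Zranb3 by 0.19 and 0.20. Peril is on chromosome 3, as are none of the 43 genes.

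Other members in brain labelled Peril -/- differed by less than 0.3, and 11 of the 43 were lower by at least 0.2, against 8.83% of all genes. Pcna went from 86.3 to 76.9 FPKM (-0.17), Tk1 from 5.84 to 4.82 (-0.23), Cdc45 from 3.59 to 2.88 (-0.24), Gins2 from 6.08 to 4.86 (-0.27) and Cdt1 from 3.19 to 2.99 (-0.07). The highest were Pold2, an accessory subunit of polymerase delta (15.6 to 18.1 FPKM, 0.20), Pole (2.78 to 3.25 FPKM, 0.17) and Ccne2 (1.001 to 1.22 FPKM, 0.15), with Ccne1 at 4.21 and 3.65 FPKM (-0.16). Of 19 mitosis genes 10 were lower by at least 0.3 (median -0.30). Neural progenitor markers had a median of -0.20 over 12 genes, choroid plexus markers -0.22 over 6, erythroid markers -0.59 over 3, microglia markers -0.32 over 8 and endothelial markers -0.24 over 8, while neuron markers had 0.06 over 11, and their part in the replication result was not tested.

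In Fendrr -/- E14.5 lung replication genes stood at the level of +/+. Of the 43, 0 were lower by 0.3, against 4.14% of all genes, and 1 was higher, against 4.34%. Below 0 were 21 of the 43, against 48.6%, with a median of 0.00. Mcm2 stood at 62.0 and 62.5 FPKM, Mcm6 at 111 in both groups, Rrm2 at 74.1 and 72.8, Uhrf1 at 80.8 and 82.0 and Tyms at 65.5 and 70.4. The member past 0.3 was Orc1 (3.24 to 4.37 FPKM, 0.34), which has the lowest level of all. Next came Pold2 (44.9 to 51.2 FPKM, 0.19) and Gins2 (50.8 to 57.1 FPKM, 0.17). Pole, the catalytic subunit of the leading-strand polymerase, was lowest (23.7 to 19.5 FPKM, -0.27), followed by Rpa1 (-0.09) and Lig1 (-0.08). By table positions Gins2 lies 0.495 Mb from Foxf1a, the neighbour of Fendrr on chromosome 8, and Cdt1 (24.8 to 25.9 FPKM, 0.06) lies 1.48 Mb from it. Cardiac genes were higher in these -/- lungs, 9 of 9 of at least 1 FPKM (median 1.51), and endothelial genes lower (median -0.33). Mitosis genes had a median of -0.01.

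**Figure D5:**
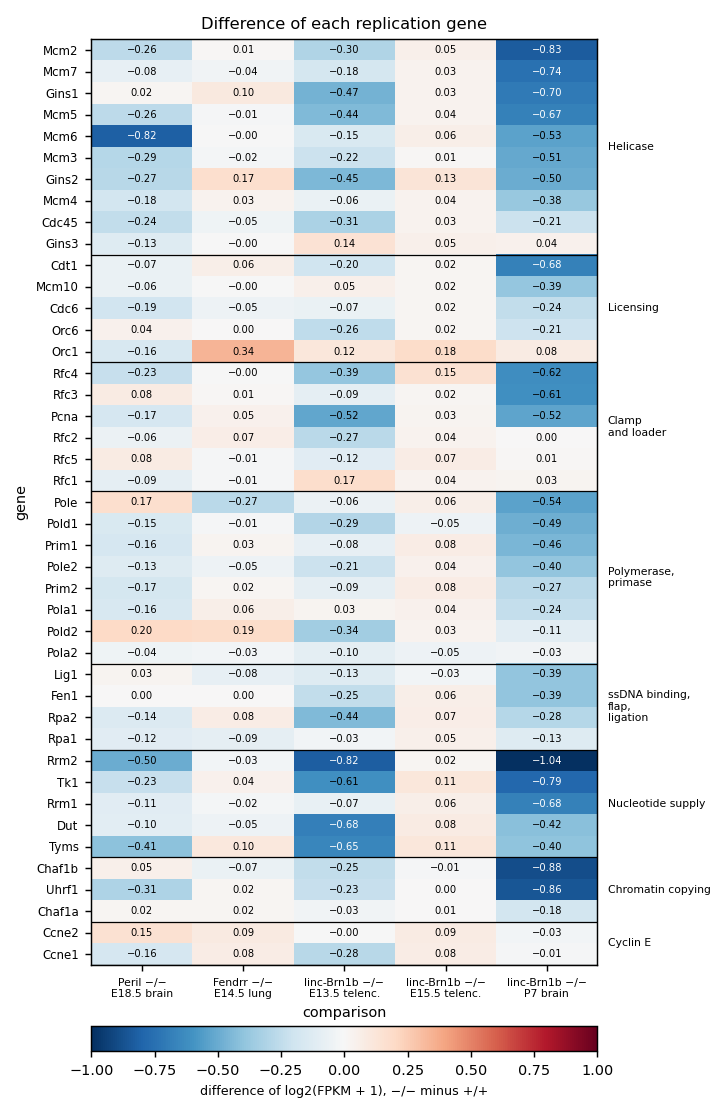
Difference of log2(FPKM + 1), -/- minus +/+, of each of the 43 genes (rows, by role) in the 5 comparisons (columns), from blue (lower in -/-) to red (higher), with the value printed in each cell. Values below 0 are those of 38 of the 43 genes at P7, 38 at E13.5, 32 for Peril, 21 for Fendrr and 4 at E15.5, and the lowest of all is Rrm2 at P7 (-1.04).

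In the brain comparisons with lower values some genes recurred. Rrm2 and Tyms, which both feed the thymidine and deoxynucleotide pools, were lower by at least 0.3 in Peril E18.5 (as labelled), linc-Brn1b E13.5 and linc-Brn1b P7 brain tissue, as were 0.49% of 12257 genes of at least 1 FPKM in each. Of the 12 genes lower at E13.5, 9 were among the 26 at P7, which is 34.6% of those. At P7 60.5% of all 43 were lower, and over all genes 20.4% of the 1710 lower at E13.5 were lower at P7. The 9 were Mcm5, Gins1, Gins2, Pcna, Rfc4, Rrm2, Tyms, Tk1 and Dut. Lower by any amount in all 3 were 26 of the 43 (60.5%), against 16.7% of the 12257 genes. Taken singly, the shares of the 43 below 0 were 74.4% for Peril and 88.4% at both E13.5 and P7. A large overlap follows from such shares, so this count does not show that particular genes recurred. E15.5 telencephalon, where 4 of the 43 were below 0, was not among the 3. None of the 43 passed 0.3 in opposite directions in any pair of comparisons.

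The differences with age and with genotype were set beside each other for each gene. Across the 43 genes, the +/+ difference from E13.5 to E15.5 had a Pearson's r of 0.47 (Spearman's rho 0.46) with the P7 knockout difference, of 0.46 (rho 0.52) with the Peril difference and of 0.15 (rho 0.13) with the Fendrr difference. No group enters both sides of any of these pairs, the points are genes of the same libraries, and the values are a description without a test. Genes with E2F letters in the promoter had a median P7 difference of -0.50 (14 genes) and those without -0.39 (22 genes), and in the E13.5 to E15.5 interval -0.95 and -0.85. The order was the opposite at E13.5 (-0.16 with and -0.27 without), and for Peril the medians were -0.16 and -0.11.

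The remaining replication genes, 30 listed beside the 43, gave smaller counts. At P7 10 of the 26 of at least 1 FPKM were lower by at least 0.3 and 0 higher (median -0.27), against 9.81% and 11.4% of all genes. The lowest values were those of Dbf4, the activator of the Cdc7 kinase (4.59 to 2.26 FPKM, -0.78), the fork protein Tipin (17.0 to 10.8 FPKM, -0.60) and the licensing inhibitor Gmnn (5.26 to 3.38 FPKM, -0.52). At E13.5 5 of 30 were lower and 1 higher (median -0.08), against 13.3% and 12.3% of all genes. Rpa3 went from 47.3 to 23.7 FPKM (-0.97) and Cdc7 from 17.8 to 23.2 FPKM (0.36), and neither was set against transcript length. In Peril brain 2 of 29 were lower, Rpa3 (-0.37) and the histone chaperone gene Asf1b (-0.33), against 3.94% of all genes. There 1 was higher, Orc4 (11.4 to 16.4 FPKM, 0.49), against 5.41%, and the median was -0.01. In E15.5 telencephalon and Fendrr lung 0 of 30 passed 0.3 in either direction.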

How the data were processed

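RNA-seq libraries were made by the authors from total RNA with the TruSeq kit. Reads were aligned to mm9 with TopHat2, and Cufflinks 2.0.2 is named in the submitters' processing notes. The deposited FPKM values were computed by the authors with Cuffdiff2, 1 per group, which leaves depth and spread between animals unknown. The tables also carry the authors' own fold changes, test statistics and p- and q-values, none of which was used. The number of value columns per sample left unused was 0. Differences were taken as log2(FPKM + 1), with Python 3.11.15 and pandas 2.3.3, for 5 knockout and 4 age comparisons within a table. Transcript lengths come from GENCODE for NCBIM37, the mm9 build. Code was tested on simulated data. Named members are the 3 lowest and 3 highest of each comparison, the most abundant of each role in E13.5 +/+ telencephalon, and a fixed list of key genes, and genes of the other lists are those furthest from 0. Other genes past the step, those at the Mcm6 locus and Top2a beside Mki67 were named after their values were seen. The members and lists were chosen with earlier results of these data known. Alternatives were other pseudocounts, filters, scales, steps and the mean. The comparison within length classes and the oligodendrocyte progenitor list were added after the data were seen.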

Additional observations from a re-analysis of the deposited data

How the results depend on the processing

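No paired analysis was possible because the tables hold 1 pooled value per group, and for the same reason no library could be left out. None of the 43 genes has more than 1 entry, so leaving out repeated entries changes nothing. Shares of all genes under the same setting are given in brackets. A pseudocount of 0.1 FPKM gave 9 members lower by 0.3 for Peril (5.98%). It gave 1 higher at E15.5 (1.25%) and 1 higher at P7 (14.8%), with a P7 median of -0.52. Age medians from E15.5 to P7 were -1.58 in +/+ and -2.03 in -/-. From E13.5 to E15.5 in -/-, 9 members were lower by 1 (2.78%). A minimum of 5 FPKM left 0 members higher in Fendrr lung (2.81%) and 12 lower at P7 (7.89%). Centring on the all-gene median gave 19 members lower at E13.5, an age median of -1.27 in +/+ from E15.5 to P7, and 2 members lower by 1 in -/- from E13.5 to E15.5. Rescaling both groups to the same FPKM sum gave a median of -0.032 at E13.5, with 6 lower (8.45%) and 3 higher (39.7%). In Fendrr lung 1 was lower (7.34%). For -/- from E13.5 to E15.5 the median was -0.91, with 15 lower by 1 (4.09%). A step of 0.2 gave 11 lower for Peril (8.83%), 1 for Fendrr (9.47%) and 22 at E13.5 (18.8%). A step of 0.5 gave 1 for Peril (1.06%), 5 at E13.5 (7.14%), 16 at P7 (3.29%) and 0 higher for Fendrr (1.80%). For the age intervals, a step of 0.5 gave 39 lower in +/+ (10.3%) and 30 in -/- (10.6%) from E13.5 to E15.5. A step of 2 gave 0 in both (0.251% and 0.273%), with 4 (1.46%) and 17 (2.18%) lower from E15.5 to P7. The mean over members was -1.77 in -/- from E15.5 to P7. The cause of these shifts was not tested, beyond the fewer genes under the filter and the step itself. No called value changed its direction under any of these settings. The other 143 summary values stayed within 0.1 (medians) or 1.5 times (counts), upper-quartile scaling included.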

Other observations

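Regulators of the G1 to S transition were less uniform than the replication genes. At E13.5 in linc-Brn1b -/- telencephalon Cdk4, the cyclin D kinase, stood at 458 FPKM in +/+ and 289 in -/- (-0.66), and Ccnd3 at 21.8 and 17.4 (-0.31). In the opposite direction stood the pocket protein genes Rb1 (23.3 to 33.4 FPKM, 0.50) and Rbl2 (7.43 to 9.44, 0.31), which hold back E2F factors. Over all 19 E2F and Rb regulators the median was -0.05. By 0.3, 2 of them were lower and 2 higher, against 13.3% and 12.3% of all genes. These E13.5 values were not set against transcript length, with which differences moved at this age. At P7 4 of 15 were lower and 1 higher by 0.3, against 9.81% and 11.4% of all genes. Among the lower were Tfdp2, a dimer partner of E2F (4.63 to 3.11 FPKM, -0.45), Rbl1 (-0.39) and Cdk4 (58.8 to 44.8 FPKM, -0.38). The higher one was Rbl2 (7.69 to 10.04 FPKM, 0.35). In brain labelled Peril -/- 2 of 18 were lower, against 3.94% of all genes. They were the cyclin D genes Ccnd1 (16.1 to 12.2 FPKM, -0.38) and Ccnd3 (14.9 to 11.6, -0.34). In Fendrr lung and E15.5 telencephalon 0 of 19 passed 0.3.

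Of 7 inhibitors of cyclin-dependent kinases 5 passed 1 FPKM, with 0 higher by 0.3 for Peril, at E13.5 or at P7. Below 0 were 5 for Peril, 4 at E13.5 and 3 at P7, against 49.2%, 41.1% and 47.8% of all genes. Cdkn1c, the imprinted inhibitor p57, was lower by 0.3 or more in brain labelled Peril -/- (44.9 to 33.4 FPKM, -0.42) and at P7 (11.5 to 7.09 FPKM, -0.62), where Cdkn2c was lower as well (4.71 to 2.74 FPKM, -0.61). Cdkn1b went from 64.5 to 75.5 FPKM at E13.5 (0.22) and from 25.9 to 21.3 at P7 (-0.27). Cdkn1a stood at 26.9 and 27.0 FPKM at P7.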
